A study of Mus musculus with 4 samples.

Results

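Ly49-positive double-negative T cells are lymphocytes of the epithelial layer that carry CD3 and Ly49 receptor transcripts but no transcript of the CD4 or CD8 coreceptors. They were taken from 4 droplet libraries of CD45.2+ leukocytes sorted from the epithelial layer of uninfected C57BL/6 mice, with 1 library each from cecum, colon, small intestine and stomach. Age, sex and number of mice are not given in the labels, and the extraction text is shared by all 4 records and speaks of colons only, so the tissue labels were used. Members were chosen by their measured UMIs of the rule's genes, so levels of these genes are descriptions. A cell barcode was a member when it held at least 1 UMI (unique molecular identifier, a counted transcript molecule) over Cd3d, Cd3e and Cd3g and at least 2 over Klra1, Klra5, Klra6, Klra7 and Klra9. It also had to hold 0 UMIs of Cd8a, Cd8b1, Cd4, Trdc and Ncr1, fewer than 2 over the recirculation genes S1pr1, Lef1 and Ly6c2, and 0 over Cd79a and Lyz2. The rule was met by 874 of 14378 barcodes, of which 535 were in cecum, 282 in colon, 36 in small intestine and 21 in stomach. A count of 0 UMIs in a droplet library does not show that a cell lacks the protein, and 225 cells stood outside the set by exactly 1 Cd8a UMI and 33 by exactly 1 Trdc UMI.

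Ly49 receptors are C-type lectin-like proteins encoded by the Klra genes of the natural killer (NK) gene complex on mouse chromosome 6. Most of the family bind MHC class I molecules and inhibit the cell that carries them, whereas Ly49D and Ly49H activate it through the adaptor DAP12 (Tyrobp). Double-negative T cells with an alpha-beta receptor are, together with CD8 alpha-alpha cells, counted among the natural intraepithelial lymphocytes, which acquire NK-type receptors and lack CD5 and CD28-type features of conventional T cells.

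Depth bears on every value below. The members held a median of 1737 UMIs per cell in cecum, 2808 in colon, 2172 in small intestine and 2867 in stomach, and summed to 974343, 840994, 80626 and 64155 UMIs. Levels are given as CPM, the UMIs of a gene scaled to a fixed total of summed UMIs, with the library as the sample. Of the 14378 barcodes, 46 had a sequence that occurred in more than 1 library, and 2 of these were members. With 1 library per tissue, tissue, animals and library cannot be told apart. The p-values measure only how far differences between cell sets vary across the libraries of a fit, 4 in the main fit. The spread was estimated over all cell sets in that fit.

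Members made up 15.8% of T cells in cecum (535 of 3380 cells, exact 95% binomial interval 14.6% to 17.1%). The share was 8.57% in colon (282 of 3291, 7.63% to 9.58%), 1.46% in small intestine (36 of 2464, 1.03% to 2.02%) and 8.02% in stomach (21 of 262, 5.03% to 11.99%). Cecum was thus highest and small intestine lowest, the cecum interval did not overlap any other, and the colon and stomach intervals did overlap. Intervals cover counting error only. Because shallow cells can miss a Cd8a or Klra transcript, every cell was also thinned to 1000 UMIs, which left out 60 T cells in cecum, 9 in colon and 1 in stomach as too shallow. Thinning can also remove the UMIs that kept a cell out, so members went from 535 to 478 in cecum, 282 to 330 in colon, 36 to 43 in small intestine and 21 to 27 in stomach, of 3331, 3284, 2463 and 278 T cells. The shares were then 14.4%, 10.0%, 1.75% and 9.71%, again with cecum highest and small intestine lowest, and the thinned intervals of cecum and stomach overlapped.

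**Figure D1:**
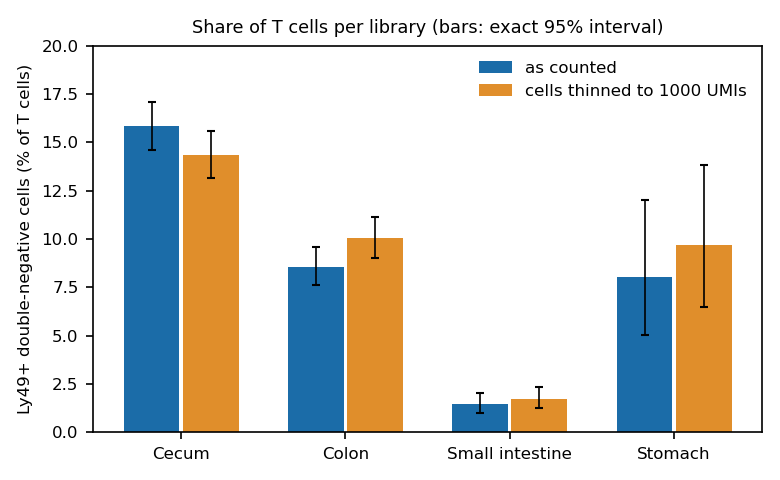
Share of T cells that met the rule (percent, y axis) in each library, as counted (blue) and after thinning each cell to 1000 UMIs (orange), with exact 95% binomial intervals. Cecum is highest at 15.8% and 14.4%, and small intestine is lowest at 1.46% and 1.75%.

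Free RNA can give a cell Klra UMIs that are not its own. Among B cells, which should lack Ly49 transcripts, at least 2 Klra UMIs were held by 1 of 546 cells in cecum, 1 of 181 in colon, 1 of 220 in small intestine and 0 of 108 in stomach, where 0 allows a share of up to 2.78%. Among T cells the share was 34.1%, 42.9%, 13.0% and 21.4%, and after thinning to 1000 UMIs it was 22.0%, 22.3%, 6.21% and 13.0%, with cecum and colon then nearly equal. Median depth was 1240 and 1751 UMIs in B and T cells of cecum, 1942 and 2998 in colon, 10112 and 2331 in small intestine, and 2528 and 2501 in stomach. At the edge of the rule, 173 members held exactly 2 Klra UMIs, and 248 cells that met every other condition held exactly 1. A further 998 cells met the other conditions with 0 Klra UMIs. These Ly49-negative double-negative cells are the main comparison and numbered 626 in cecum, 198 in colon, 100 in small intestine and 74 in stomach.

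The Klra transcripts that chose the members are described without a test. Klra genes are near-identical in sequence, so the split of UMIs between them depends on how the authors' pipeline assigned reads and is uncertain. Klra7, which encodes Ly49G, gave 52.2% of the 4973 UMIs of the 5 genes, and 669 of 874 members held at least 1 UMI of it. Klra6 (Ly49F) gave 19.4%, Klra1 (Ly49A) 14.2%, Klra5 (Ly49E) 10.2% and Klra9 (Ly49I) 4.04%. Klra7 reached 1482 CPM in cecum, 1170 in colon, 1203 in small intestine and 1091 in stomach, so the highest library was cecum and the lowest stomach. Klra6 stood at 544, 483, 322 and 62.3 CPM, and was low in stomach, where 4 UMIs were counted. Klra1 stood at 402, 263 and 335 CPM and at 998 CPM in stomach, where it was high. Klra5 stood at 150 CPM in cecum, and at 370, 372 and 312 CPM in colon, small intestine and stomach, so cecum was the low library.

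Most members held transcripts of more than 1 of the 5 genes. A UMI of exactly 1 gene was found in 277 members, of 2 genes in 388, of 3 in 178, of 4 in 29 and of all 5 in 2. The most frequent pair was Klra6 with Klra7, found together in 357 members, followed by Klra1 with Klra7 in 222 and Klra1 with Klra6 in 138. The Klra6 and Klra7 pair was found in 230 cells of cecum and 115 of colon but in 2 of the 21 stomach members.

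The make-up differed from that of Ly49-positive cells in neighbouring T cell sets, again as a description. Klra5 gave 10.2% of the UMIs in the members, 30.7% in Ly49-positive CD8 alpha-alpha cells (the same rule with at least 1 Cd8a UMI) and 50.8% in Ly49-positive gamma-delta T cells (at least 1 Trdc UMI). Within colon the Klra5 shares were 15.6%, 34.2% and 55.9%, and within small intestine 15.9%, 49.4% and 68.0%, so the order held in both. Within cecum they were 5.59%, 11.3% and 15.6%. The Klra7 shares fell in that order of sets in colon, at 49.2%, 35.9% and 28.6%, but were close in cecum, at 55.3%, 51.7% and 53.1%. In stomach, Klra1 gave 36.8% of UMIs in the members and 33.96% in gamma-delta cells, against 15.01% and 10.7% in cecum.

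**Figure D2:**
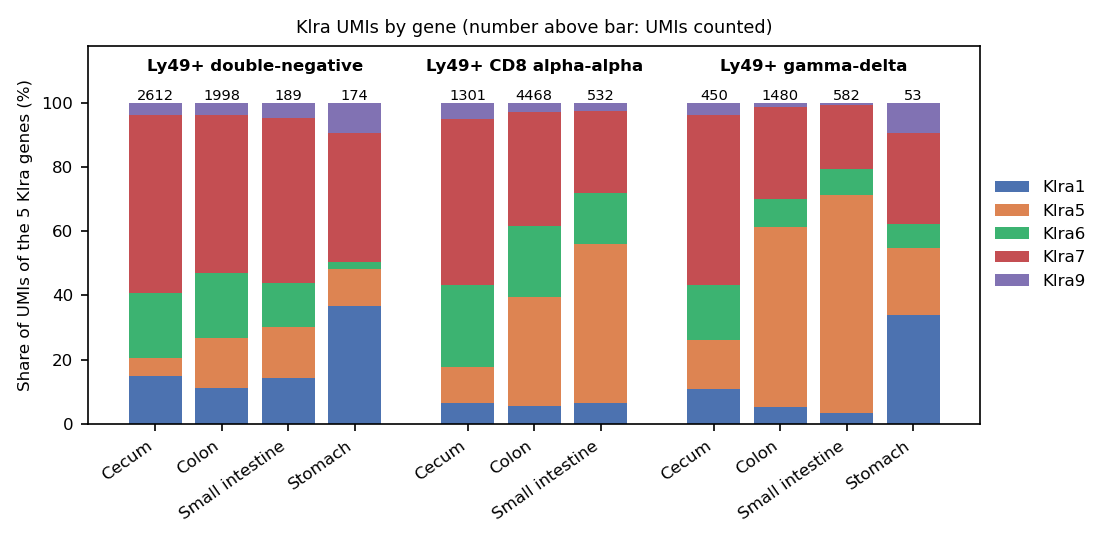
Share of UMIs of the 5 Klra genes given by each gene (percent, y axis) in Ly49-positive double-negative, CD8 alpha-alpha and gamma-delta T cells of each library, with the number of UMIs above each bar. Klra7 gives 40.2% to 55.3% of the members' UMIs in each library, and Klra5 takes a larger share in the colon and small intestine bars of the other sets.

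Other receptors of the NK gene complex were higher in the members. Against Ly49-negative double-negative cells, edgeR's quasi-likelihood test with the library as a term called 35 of 9123 genes higher in the members (0.384%) and 95 lower (1.04%), at a Benjamini-Hochberg adjusted p under 0.05. At an unadjusted p under 0.05 there were 868 genes (9.51%) in either direction. The genes of the rule were left out of this test.

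Klre1, which encodes a lectin-like NK receptor, had been named as a marker of this population. It was 8.47-fold higher in the members (log2 3.08 ± 0.39 SE, higher in 4 of 4 libraries, adjusted p = 6.23e-06). Its level was 322 CPM in cecum, 321 in colon, 273 in small intestine and 686 in stomach, against 50.6, 16.4, 16.7 and 95.5 CPM in Ly49-negative cells. All member values lay above all comparator values. Klrb1c, which encodes NK1.1, was 5.30-fold higher (log2 2.41 ± 0.30, adjusted p = 6.66e-06). It stood at 149, 159, 322 and 187 CPM against 22.5, 26.3, 60.2 and 42.4 CPM, again without overlap. Klrk1, which encodes the activating receptor NKG2D, was 3.41-fold higher (log2 1.77 ± 0.46, adjusted p = 0.0418). It stood at 311, 417, 298 and 888 CPM against 74.1, 159, 23.4 and 308 CPM, higher in each library with the groups overlapping through the high stomach value of the comparator.

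Klrd1, which encodes CD94, the partner of NKG2 receptors, was 2.02-fold higher (adjusted p = 0.0152). It stood at 1924, 1878, 1228 and 1076 CPM against 1368, 1222, 287 and 265 CPM. Cd160, a receptor of NK cells and intraepithelial T cells that was named as a marker of this population, was 1.74-fold higher (log2 0.80 ± 0.20, adjusted p = 0.0352). Its levels of 1082, 1162, 1029 and 795 CPM stood beside 983, 799, 381 and 143 CPM, so the difference was small in cecum and large in small intestine and stomach. Of the 17 tested NK receptor genes outside the Klra family, these 5 were higher and 0 were lower, with a median log2 difference of 0.80 beside -0.02 over all tested genes. Among them, Klre1 and Cd160 were named as markers with earlier results of these data known, so their calls are not independent support. The background share of higher genes was 0.384%. Klrb1a (log2 0.62, adjusted p = 0.119), Cd244a (0.64, 0.0535) and Klrc2 (1.18, 0.400) did not pass. Of 5 tested Klra genes outside the rule, the pseudogene Klra13-ps and Klra10 passed (log2 5.93 and 4.52), and misassigned reads of the rule's own genes cannot be told apart from their transcripts.

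The calls for Klre1, Klrb1c, Klra13-ps and the chemokine gene Xcl1 held with any 1 library left out. Klrk1 lost its call without cecum (log2 1.65, adjusted p = 0.121) or colon (2.05, 0.456), Klrd1 without colon (1.24, 0.0816) or small intestine (0.80, 0.135), and Cd160 without colon (0.99, 0.217) or small intestine (0.64, 0.287). Klra10 lost its call without colon (4.28, 0.205). Without colon 4 genes were higher and 13 lower in all, without cecum 39 and 273, and without small intestine 20 and 74.

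In cells, Klre1 was detected in 171 of 535 members in cecum (32.0%), 119 of 282 in colon (42.2%), 12 of 36 in small intestine (33.3%) and 16 of 21 in stomach (76.2%). The corresponding shares of Ly49-negative cells were 7.19%, 4.55%, 2% and 9.46%. Klrk1 was detected in 25.05%, 42.2%, 33.3% and 85.7% of members, so the stomach members were the highest for both genes. Depth differs between the libraries, and its part in these shares was not tested.

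**Figure D3:**
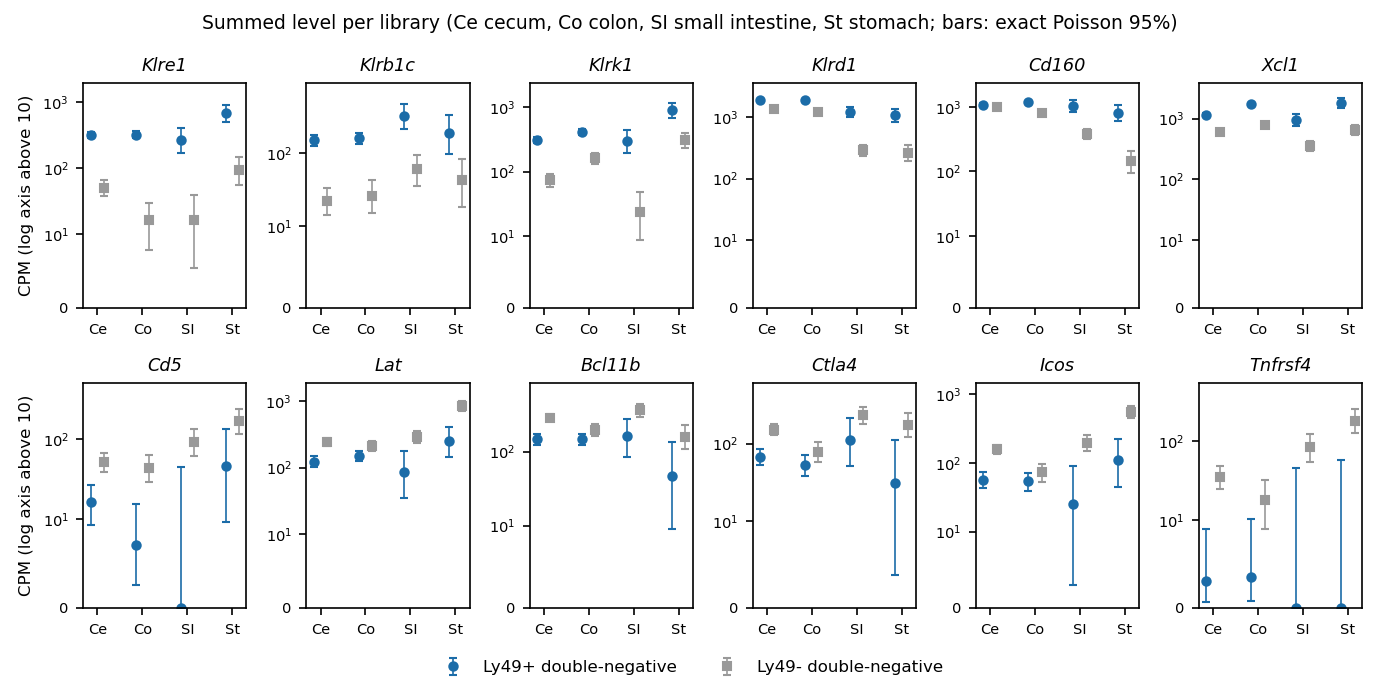
Level of 12 genes (CPM, y axis, log axis above 10) in Ly49-positive (blue circles) and Ly49-negative (grey squares) double-negative T cells of each library, with exact Poisson 95% intervals. The 6 genes of the upper row are higher in the members in every library, and the 6 of the lower row are lower.

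The receptor genes lie together in the genome. On GRCm38, the interval from Klrb1a to Klra1 spans chr6:128609227-130386874 and holds 28 annotated Klr genes. It held 22 tested genes, of which 6 were among the 35 higher in the members: Klrb1c, Klre1, Klrd1, Klrk1, Klra10 and Klra13-ps. Of all 9123 tested genes, 0.384% were higher. The ends of the interval were set by receptor genes, so these 6 restate the receptor calls above and are not a separate result. For Klra10 and Klra13-ps, misassigned reads of the rule's own Klra genes cannot be told apart from their transcripts, so they may restate the choice of members. Cd160 lies elsewhere, on chromosome 3. The 250 bases before the start sites of receptor genes were read from RefSeq promoter windows (GRCm38.p6), which were found for 9 of the 10 genes looked up. These were 4 genes called higher in the members (Klre1, Klrk1, Klrb1c and Cd160) and the 5 Klra genes of the rule, which are high by choice. Searched on both strands, TGTGGTT, the core that RUNX factors bind, occurred in windows of 3 of the 4 called genes, Klre1, Klrk1 and Cd160, in 1 of the 5 genes of the rule, Klra1, and in 5.08% of the 27025 genes with a window. The T-box letters GGTGTGA occurred in Cd160 alone (3.84% of all genes), the AP-1 letters TGACTCA in none (5.16%), and the ETS letters CGGAAA in Klre1 and Klra7 (8.41%). Matches of the 4 motifs did not overlap in these windows. A match is a description of letters and not a binding site, and the genes were chosen with their levels known. For each gene, 1 window that holds the RUNX letters is shown 5′ to 3′ on the gene's strand, with the matched letters in capitals. A further Cd160 window (chr3:96829352-96829601, minus strand) holds the reverse complement AACCACA 77 bases before its start and is not shown.
Klre1, chr6:129577963-129578212, plus strand: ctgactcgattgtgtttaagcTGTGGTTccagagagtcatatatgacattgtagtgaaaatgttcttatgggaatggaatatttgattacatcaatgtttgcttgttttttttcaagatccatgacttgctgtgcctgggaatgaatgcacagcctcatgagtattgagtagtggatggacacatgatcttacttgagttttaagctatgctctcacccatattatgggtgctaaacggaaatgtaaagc
Klrk1, chr6:129623865-129624114, minus strand: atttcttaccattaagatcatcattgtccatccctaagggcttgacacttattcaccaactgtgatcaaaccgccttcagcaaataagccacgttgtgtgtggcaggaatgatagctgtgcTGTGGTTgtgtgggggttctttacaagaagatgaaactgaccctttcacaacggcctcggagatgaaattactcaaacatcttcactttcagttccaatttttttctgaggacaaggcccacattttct
Klra1, chr6:130386875-130387124, minus strand: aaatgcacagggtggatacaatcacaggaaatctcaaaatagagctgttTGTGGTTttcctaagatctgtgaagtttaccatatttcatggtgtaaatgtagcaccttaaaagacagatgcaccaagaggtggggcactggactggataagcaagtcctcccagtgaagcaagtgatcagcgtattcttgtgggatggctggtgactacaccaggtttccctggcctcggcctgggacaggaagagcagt
Cd160, chr3:96814522-96814771, minus strand: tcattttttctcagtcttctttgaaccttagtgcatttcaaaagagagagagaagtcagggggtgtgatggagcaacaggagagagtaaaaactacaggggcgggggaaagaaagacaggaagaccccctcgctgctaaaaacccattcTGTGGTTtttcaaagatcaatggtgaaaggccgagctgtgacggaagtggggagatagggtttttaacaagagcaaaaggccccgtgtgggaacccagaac
The match lay 229 bases before the start in Klre1, 129 in Klrk1, 201 in Klra1 and 101 in the Cd160 window shown.

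Of 15 tested signalling adaptor genes, 1 was higher (Fcer1g) and 1 lower (Lat), with a median log2 difference of 0.22. Over all genes, 0.384% were higher and 1.04% lower. Fcer1g, which encodes an ITAM adaptor shared by Fc and NK receptors, was 1.6-fold higher (adjusted p = 0.0411). It stood at 1801, 1767, 2853 and 2806 CPM against 1177, 1044, 1594 and 1634 CPM. Xcl1, the chemokine lymphotactin, was 2.25-fold higher (log2 1.17 ± 0.21, adjusted p = 0.0012). It stood at 1163, 1740, 943 and 1808 CPM against 591, 776, 358 and 652 CPM, without overlap between the groups. Ctsw, which encodes the granule protease cathepsin W, was 1.57-fold higher (adjusted p = 0.0216), and the transcription factor gene Nr4a2 was 1.6-fold higher (adjusted p = 0.0260). Car2 (carbonic anhydrase II), Gcnt2 (a glycosyltransferase), Trf (transferrin), Olfm1, Srgap3, Ppm1j and Clnk, an adaptor of immune receptors, were 2.08-fold to 3.56-fold higher. Each was higher in 4 of 4 libraries.

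Of these, only Xcl1 kept its call with each library left out. Fcer1g lost it without cecum (adjusted p = 0.0941), colon (0.507) or small intestine (0.169), Ctsw without colon (0.189) or small intestine (0.176) and Nr4a2 without colon (0.420) or small intestine (0.0629). Trf lost it without colon (0.0841), Car2 without cecum (0.180) or colon (0.0648), Gcnt2 without cecum (0.0527) or colon (0.205), and Srgap3 without colon (0.241) or small intestine (0.0566). Ppm1j and Clnk lost it without any 1 of cecum (0.549 and 0.0649), colon (0.237 and 0.436) or small intestine (0.0605 and 0.0506). Olfm1 was not tested without colon.

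The T cell genes Lat, Cd5, Cd6 and Bcl11b were lower in the members. The signalling adaptor list as a whole did not follow, with log2 differences above 0 for 11 of 15 tested genes and below 0 for 4. Lat, the adaptor that links the T cell receptor to downstream enzymes, was 2.12-fold lower (log2 -1.08 ± 0.18, lower in 4 of 4 libraries, adjusted p = 5.64e-04). It stood at 123, 151, 86.8 and 249 CPM against 243, 214, 291 and 849 CPM. Cd5, which restrains T cell receptor signals, was 5.05-fold lower (adjusted p = 0.0053), at 16.4, 7.13, 0 and 46.8 CPM against 52.5, 44.4, 93.6 and 170 CPM. Its relative Cd6 was 4.83-fold lower (adjusted p = 0.0211). Bcl11b, a factor of T cell identity, was 1.83-fold lower (adjusted p = 0.0075), at 148, 147, 161 and 46.8 CPM against 289, 196, 361 and 159 CPM.

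The receptor chains themselves did not pass this test. Trac stood at 982, 952, 546 and 1060 CPM in the members and at 883, 704, 525 and 684 CPM in Ly49-negative cells (log2 0.29 ± 0.21, adjusted p = 0.750). Trbc2 stood at 3073, 3111, 2195 and 3414 CPM against 3113, 2919, 1537 and 1464 CPM (log2 0.36, adjusted p = 0.239). A UMI of Trbc1 or Trbc2 was found in 97.4% of members in cecum, 99.6% in colon, 97.2% in small intestine and 100% in stomach, and a Trac UMI in 73.5%, 86.2%, 50% and 81.0%. In Ly49-negative cells the shares were 97.1%, 98.0%, 91.0% and 73.0% for Trbc1 or Trbc2, and 66.0%, 76.3%, 61.0% and 52.7% for Trac. A UMI of Tcrg-C1, Tcrg-C2 or Tcrg-C4, the gamma chain constant genes, was found in 15.7%, 30.9%, 13.9% and 4.76% of members. The Ly49-negative cells had 20.4%, 32.8%, 10% and 5.41%. Cd28 did not pass (log2 -0.41 ± 0.31, adjusted p = 0.778). Of 16 tested T cell receptor and coreceptor genes, 0 were higher and 2 lower (Cd5 and Cd6), beside 1.04% of all genes lower, and the median log2 difference was -0.13.

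Checkpoint and costimulatory receptors were lower in 4 of 13 tested genes, beside 1.04% of all genes, with 0 higher, although the list's median of 0.12 was above 0. The Ly49-negative comparator was kept free of CD4 T cells only by 0 Cd4 UMIs, at a median of 1592.5 to 2582.5 UMIs per cell. Cells whose Cd4 transcript was missed may stand in that set, and their part in these differences was not tested. Tnfrsf4 (OX40) was 12.6-fold lower (log2 -3.65 ± 0.59, adjusted p = 4.33e-04), at 3.08, 3.57, 0 and 0 CPM against 34.7, 18.1, 83.6 and 180 CPM. Icos was 2.93-fold lower (adjusted p = 0.0250), at 56.4, 53.5, 24.8 and 109 CPM against 157, 72.3, 194 and 552 CPM. Ctla4 was 2.27-fold lower (adjusted p = 0.0121), at 67.7, 52.3, 112 and 31.2 CPM against 151, 78.9, 231 and 175 CPM. Pdcd1, which encodes PD-1, was 7.59-fold lower (adjusted p = 0.0036) but not in every library. It stood at 8.21, 1.19 and 0 CPM in cecum, colon and small intestine against 86.3, 31.2 and 10.0 CPM, and at 46.8 CPM in stomach from 3 UMIs, above the 10.6 CPM of the comparator.

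Ccr9, the receptor for the small intestinal chemokine CCL25, was 9.61-fold lower (adjusted p = 5.64e-04), at 6.16, 7.13 and 37.2 CPM in cecum, colon and small intestine against 57.2, 31.2 and 475 CPM. In stomach each group held 1 UMI. Egr1, an immediate early gene induced by receptor signals, was 3.26-fold lower (adjusted p = 0.0039), with nearly equal levels in cecum (141 and 143 CPM). Maf was 13.6-fold lower and Areg, which encodes amphiregulin, 22.9-fold lower. Ly6a (Sca-1) held 1 UMI in the members, in stomach, against 47, 42, 64 and 83 UMIs in the Ly49-negative cells, and passed the test. The calls for Lat, Tnfrsf4, Ccr9, Areg, Ly6a, Cbfa2t3 and Ifi27l2a held with any 1 library left out. Without colon the adjusted p was 0.174 for Cd5, 0.205 for Cd6, 0.0648 for Bcl11b and Ctla4, 0.0917 for Icos, 0.189 for Pdcd1, 0.128 for Egr1 and 0.0961 for Maf. Without cecum it was 0.0505 for Icos and 0.341 for Pdcd1.

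Markers of other cells moved in this comparison as well. Of the tested markers, 5 of 5 epithelial and 6 of 8 mast cell markers were lower in the members, beside 1.04% of all genes. Lgals4 was nonetheless higher in the members in 2 of 4 libraries and Epcam and Krt18 in 1, and without cells above 2 times the median UMIs Epcam and Fabp2 reversed (log2 0.35 and 1.78). Krt8, App and Adam15 were among the lower genes. App and Adam15 held 0 UMIs in the members against 45 and 19 in the comparator, and with 3 counts per library set for the members the bounds reached at most 11.5-fold and 3.23-fold, both in colon. Krt8, a keratin of epithelial cells, stood at 0, 0, 12.4 and 0 CPM in the members and at 1.88, 916, 2741 and 26.5 CPM in Ly49-negative cells. The summed level of 10 epithelial markers ranged from 31.2 to 183 CPM in members and from 37.1 to 9472 CPM in the comparator. The summed level of 8 mast cell markers ranged from 146 to 4676 CPM in members and from 390 to 48289 CPM in the comparator, with the stomach library highest in both. Fcer1a, a defining mast cell receptor, was at 0 in all members. Mcpt2 reached 7569 CPM in stomach B cells, which do not make it. Mcpt-ps1, Mcpt2, Sdc4, Lima1, Rnase4 and Marcks were also among the lower genes. Without colon or without stomach several of them were not tested or lost their call, with adjusted p of 0.205 for Mcpt2 without colon and 0.123 without stomach. The part of other cells in these results was not tested.

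Restricted to cecum and colon, which hold 817 of the 874 members, the same test called 37 of 9663 genes higher (0.383%) and 60 lower (0.621%), and 65 of the 130 calls were shared. The NK receptor list then had 4 of 17 genes higher and 0 lower. Of 3 macrophage and dendritic markers, 2 were lower in the members, Cd74 (log2 -4.02, adjusted p = 4.23e-10) and H2-Ab1 (-2.31, 3.32e-04). Of 16 cytotoxic granule genes, 1 was higher (Fasl, log2 0.90) and 2 lower (Gzma, -5.26, and Gzmc, -2.50). Of 15 signalling adaptor genes, 2 were higher (Tyrobp, log2 1.06, and Fcer1g, 0.69) and 2 lower (Lat, -0.73, and Cd247, -0.68). Klre1 (log2 3.10), Klrb1c (2.68), Klrk1 (1.75) and Klrd1 (0.57) kept their calls there. Cd160 (log2 0.34, adjusted p = 0.191), Ctla4 (-0.92, 0.0715), Ctsw (0.30, 0.108) and Egr1 (-1.05, 0.229) lost theirs. So did Olfm1 (1.69, 0.0853), Srgap3 (0.99, 0.111), Klra10 (4.17, 0.0673), Epcam (-0.98, 0.0726), Cpa3 (-3.77, 0.137), Mcpt-ps1 (-3.74, 0.671) and Rnase4 (-3.78, 0.294), and 8 further named genes were not tested there: Adam15, Lima1, Cma1, Tpsb2, Fcer1a, Krt18, Fabp2 and Lgals4.

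The difference between Ly49-positive and Ly49-negative cells was itself compared between double-negative and CD8 alpha-alpha T cells by an interaction term. It passed for 0 genes in the direction of a higher and 7 of a lower value in double-negative cells (0.0767%), with 483 (5.29%) at an unadjusted p under 0.05. None of the 17 NK receptor genes was among the 7. A different size of the Klre1, Klrb1c, Klrk1, Klrd1 and Cd160 differences in the 2 sets was thus not shown. The rule splits these sets by Cd8a UMIs alone, so cells with a missed Cd8a transcript can stand among the double-negative cells.

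Against Ly49-positive CD8 alpha-alpha cells, which differ from the members by Cd8a alone in the rule, the comparison asked what else separates the sets. The fit that shares its spread with the other T cell and NK sets called 0 genes higher and 2 lower of 9123 (0.0219%), with 567 genes (6.22%) at an unadjusted p under 0.05 and 0 calls by DESeq2. Both called genes, Cma1 and Tpsb2, encode mast cell proteases. In the small intestine CD8 alpha-alpha cells they held 68 and 69 UMIs, and the members held 0 in cecum, colon and small intestine and 48 and 36 in stomach, where no CD8 alpha-alpha sum was large enough to enter. Both calls were lost without small intestine (adjusted p = 1), and without stomach 0 genes were called.

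Narrower fits called more genes. With the pair alone, 74 of 7918 tested genes were higher (0.935%) and 77 lower (0.972%), and with all sets in cecum and colon alone, 25 of 9663 were higher (0.259%) and 29 lower (0.3%). These fits also differ in the genes tested or in the libraries used, and the cause of the move was not tested. In the pair-alone fit both sets had sums only in cecum, colon and small intestine, and the other fit held only cecum and colon. With so few sums, the p-values lean on a spread estimated across genes and say little on variation between libraries. Both narrower fits called 52 genes in common (24 higher, 28 lower), and the genes below are from these, with their values in the pair-alone fit. None of them passed in the shared fit, where Klrk1 had a log2 difference of 1.88 and an adjusted p of 0.265. Klrk1 was higher (log2 2.01 ± 0.14, adjusted p = 2.70e-16), at 311, 417 and 298 CPM in members of cecum, colon and small intestine against 112, 83.1 and 76.6 CPM. Il18r1, an interleukin-18 receptor chain, was higher (log2 1.99), as was Cd28 (log2 1.32), at 251, 197 and 223 CPM against 173, 56.5 and 22.4 CPM. Klrb1c was higher (log2 0.83), at 149, 159 and 322 CPM against 74.6, 99.7 and 153 CPM. Ms4a4b and Itgal, the latter the alpha chain of the integrin LFA-1, were higher too (log2 1.05 and 0.95).

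Lower in the members were cell cycle genes, 7 of 10 tested with the pair alone and 5 of 11 in cecum and colon, beside 0.972% and 0.3% of all genes. Mki67 stood at 0, 40.4 and 0 CPM against 103, 72.7 and 92.6 CPM, and Ccnb2 at 0, 1.19 and 0 CPM against 31.1, 17.0 and 25.5 CPM. Top2a and Stmn1 followed (log2 -1.50 and -2.20). The integrin gene Itgae, which encodes CD103, was lower (log2 -0.66), at 111, 163 and 620 CPM against 165, 286 and 846 CPM. Ccr9, Gzma and the gamma chain genes Tcrg-C1 and Tcrg-C3 were also lower (log2 -2.09, -2.25, -1.02 and -0.99). Immediate early and heat shock genes were higher in 11 of 22 tested with the pair alone and 8 of 22 in cecum and colon, beside 0.935% and 0.259% of all genes, Hspa1a among them (log2 0.65). Median depth was 1936 and 3399 UMIs in CD8 alpha-alpha cells of cecum and colon against 1737 and 2808 in members, and its part was not tested.

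The members were also compared with an NK/ILC1 set (at least 1 Ncr1 UMI and 0 UMIs of CD3 genes). Members needed CD3 UMIs and 0 Ncr1 UMIs, so the rule itself sets T cells against NK cells. Higher T cell receptor genes and lower NK genes in the members thus follow in part from that cut. Their calls are descriptions and not independent support. The NK set held 40 cells in cecum, 44 in colon, 30 in small intestine and 319 in stomach. Against it, 65 genes were higher in the members (0.712%) and 123 lower (1.35%). Trac, the constant region of the T cell receptor alpha chain, was 28.1-fold higher (log2 4.81 ± 0.35, adjusted p = 4.45e-11), at 982, 952, 546 and 1060 CPM against 12.7, 30.6, 28.3 and 28.1 CPM. Trbc2 was 3.55-fold higher, whereas Trbc1 did not pass (log2 -0.16 ± 0.15, adjusted p = 0.817). The NK set held 0 UMIs of Trgv2, a gamma variable segment, and of Traj18, an alpha joining segment, in all 4 libraries. The members held 239 and 86, which gives bounds per library, computed with 3 counts in the NK set, of 1.17-fold to 14.98-fold for Trgv2 and 1.24-fold to 14.98-fold for Traj18. Ikzf2, which encodes the Ikaros family factor Helios, was 3.25-fold higher (adjusted p = 9.77e-04), at 974, 899, 992 and 374 CPM against 114, 115, 227 and 256 CPM. Bcl11b was 2.51-fold higher (adjusted p = 0.01002).

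Lower in the members were factors and effectors of NK cells. Eomes, a master factor of NK cells, was lower (fitted log2 -6.11 ± 0.70, adjusted p = 5.54e-07), at 2.05, 1.19, 0 and 0 CPM against 50.6, 153, 113 and 68.7 CPM. Tbx21, which encodes T-bet, was 2.13-fold lower (adjusted p = 0.0046), at 70.8, 76.1, 49.6 and 140 CPM against 190, 199, 170 and 210 CPM. Tyrobp was 3.33-fold lower (adjusted p = 6.57e-04), at 694, 691, 1166 and 1076 CPM against 2937, 3025, 3032 and 2402 CPM. The activating Ly49 genes that signal through it were nearly missing. Klra4 (Ly49D) held 1 UMI in all members against 2, 26, 15 and 66 UMIs in the NK set, and Klra8 (Ly49H) stood at 7.18, 4.76, 0 and 15.6 CPM against 152, 153, 255 and 86.4 CPM. Both passed the test (log2 -7.67 and -4.75).

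Of 17 NK receptor genes outside the Klra family, 5 were lower (Klrb1f, Klrb1b, Klri2, Klrb1c and Slamf7), beside 1.35% of all genes, and 0 higher. Klrb1c, though higher than in Ly49-negative cells, was thus 3.41-fold below the NK set, at 149, 159, 322 and 187 CPM against 810, 605, 737 and 313 CPM. Klrd1 (log2 0.10 ± 0.24, adjusted p = 0.956) and Cd160 (log2 0.16 ± 0.21, adjusted p = 0.887) did not pass. A missed threshold does not show equal levels. Of 15 cytotoxic granule genes, 4 were lower, beside 1.35% of all genes, and 0 higher. Among the 4 was Prf1, which encodes perforin, at 9.24, 4.76, 49.6 and 0 CPM against 76.0, 138, 42.5 and 86.4 CPM. Il2rb, the chain for interleukin-2 and interleukin-15, was 2.02-fold lower and the chemokine gene Ccl3 6.07-fold lower.

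Trac, Trbc2, Traj18 and Trgv2 among the higher genes, and Eomes, Klra4, Klra8, Klrb1c, Tyrobp and 25 others among the lower, kept their calls with each library left out. Without colon the adjusted p was 0.0756 for Ikzf2, 0.361 for Bcl11b, 0.154 for Tbx21, 0.0820 for Il2rb, 0.0625 for Ccl3, 0.230 for Prf1 and 0.0532 for Slamf7. Without stomach it was 0.0825 for Bcl11b and 0.0870 for Slamf7. In all, 14 genes were higher and 34 lower without colon, and 38 were higher without cecum. Of the NK set, 319 of 433 cells came from stomach, where its mast cell marker sum was 16080 CPM, against 152 CPM in cecum.

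**Figure D4:**
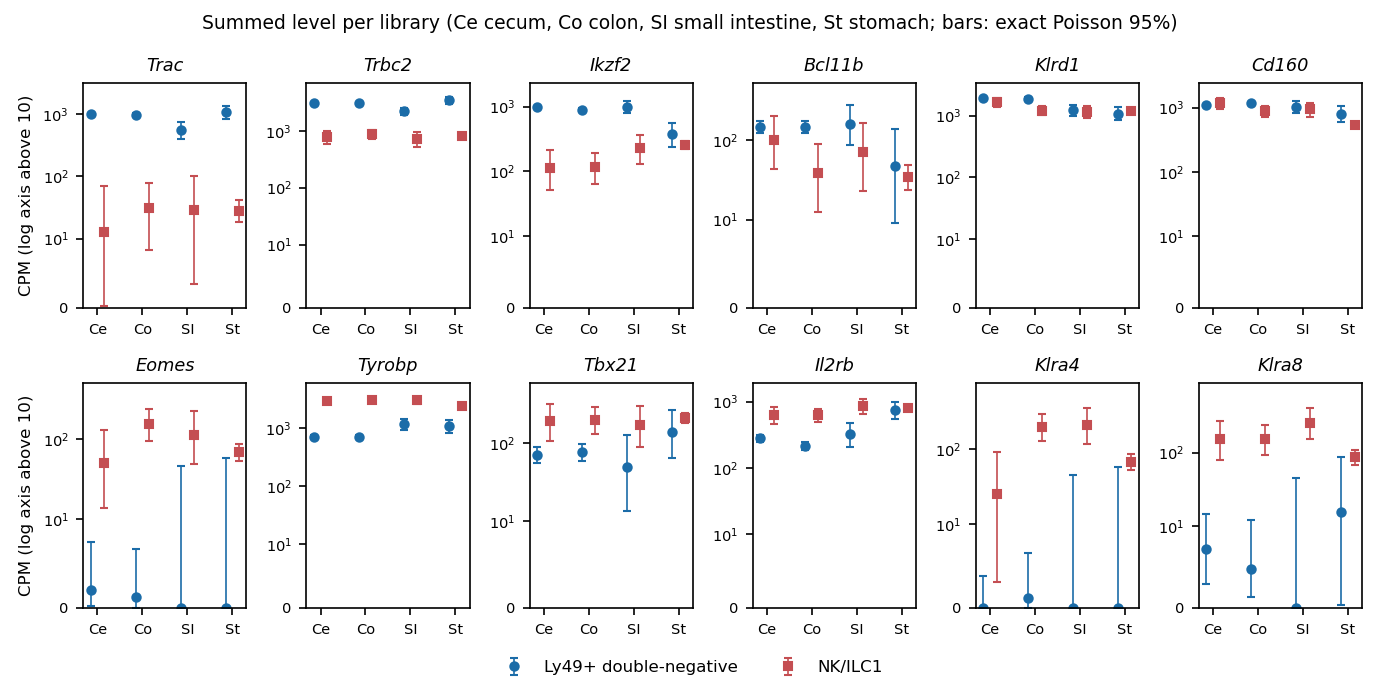
Level of 12 genes (CPM, y axis, log axis above 10) in Ly49-positive double-negative T cells (blue circles) and NK/ILC1 cells (red squares) of each library, with exact Poisson 95% intervals. Trac and Trbc2 are higher in the members in every library, Klrd1 and Cd160 are near each other, and the genes of the lower row are lower in the members.

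Between cecum and colon, the members were compared by the ratio of CPM with an exact conditional Poisson interval, and no test was possible with 1 library each. The interval covers counting error only and treats all UMIs as independent. It can be too narrow where a few cells hold many of a gene's UMIs, so the counts of genes past the limit may be too high. Of 8360 genes with at least 20 UMIs, 180 (2.15%) were at least 2-fold higher in cecum with an interval that did not hold 1, and 212 (2.54%) in colon. Ccl4, a chemokine of activated lymphocytes, was 6.49-fold higher in cecum (162 against 24.97 CPM, interval 4.11 to 10.8). Heat shock genes followed, with Hspa1a 2.53-fold (2354 against 932 CPM), Hspa1b 2.39-fold, Dnajb1 2.40-fold, Hspa2 3.80-fold and the co-chaperone Bag3 4.92-fold. The immediate early gene Atf3 was 3.04-fold higher. Bend4, Sox4, Hes1 (a target of Notch signalling), Gypc and Tnni1 were 3.70-fold to 7.19-fold higher. Of 22 measured immediate early and heat shock genes, 5 were past the limit in cecum, beside 2.15% of all genes, and 0 in colon. Their median log2 ratio was 0.68 beside 0.03 over all genes. Within these 2 libraries, Hspa1a, Hspa1b and Dnajb1 did not pass in edgeR between members and Ly49-negative double-negative cells (log2 0.09, 0.16 and 0.23). Of the 22 list genes tested there, 2 were higher in the members and 0 lower. The cecum to colon ratio is thus not shown to be particular to the members.

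Cell cycle genes were higher in colon. Mki67, a marker of dividing cells, held 34 UMIs in colon and 0 in cecum, at least 13.1-fold higher when cecum is set at 3 counts. Pclaf held 28 UMIs in colon and 2 in cecum, a 16.2-fold ratio with an interval of 4.09 to 141. The histone genes Hist1h2ap, Hist1h2an, Hist1h2ac and Hist1h2ag were 4.61-fold to 6.98-fold higher. Of 7 measured cell cycle genes, 5 were past the limit in colon, beside 2.54% of all genes. Setbp1 was 11.6-fold higher, and Smim27, Gm5963, Gm8942 and Gm10736 were 2.78-fold to 4.56-fold higher. Gzma, which encodes granzyme A, held 23 UMIs in colon and 2 in cecum. No NK receptor gene of the 15 measured was past the limit in either direction, beside 2.15% of all genes in cecum and 2.54% in colon. The cecum library was the shallower, and the part of depth in these ratios was not tested.

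**Figure D5:**
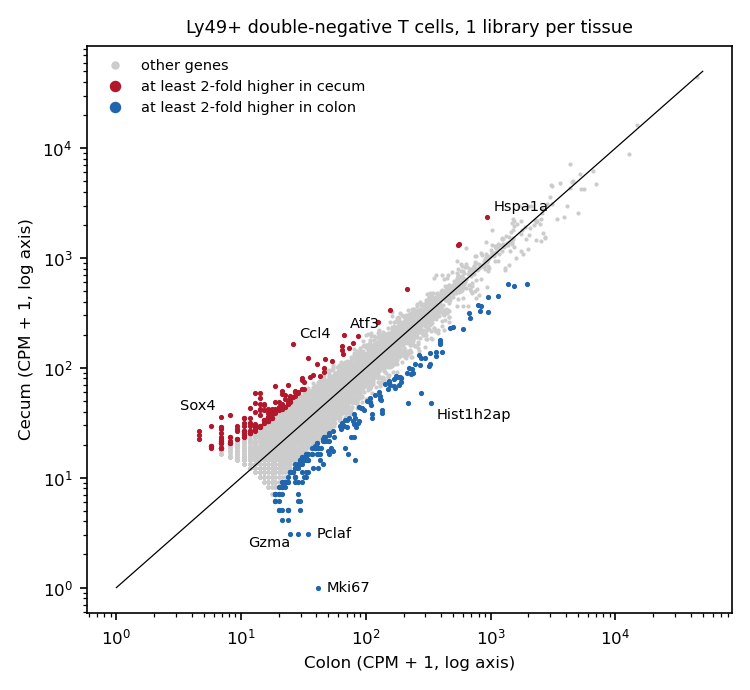
Level of each of 8360 genes in members of the cecum (y axis) and colon (x axis) libraries, as CPM plus 1 on log axes, with equal levels on the line. The 180 genes past the limit in cecum are red and the 212 in colon are blue, among them Ccl4 and Hspa1a above the line and Mki67 and Pclaf below it.

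Gzma, Gzmb and Ccl5 were highest in the small intestine members, whereas Xcl1 was lowest there. Gzma stood at 2.05, 27.3, 10927 and 0 CPM in cecum, colon, small intestine and stomach. In small intestine the Ly49-negative cells held 20281 CPM and B cells, which do not make it, 39.7 CPM. Gzmb stood at 188, 333, 1153 and 249 CPM, and Ccl5 at 4210, 5244, 14772 and 4302 CPM. The Ly49-negative cells of small intestine were likewise the highest of their set for these 3 genes.

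The members were placed among T cells of their own library by their 15 nearest neighbours, on 30 principal components computed without the rule's genes and without any Klra gene. In cecum 26.1% of a member's neighbours were members, beside 15.8% of all T cells. The values were 14.3% beside 8.57% in colon, 6.67% beside 1.46% in small intestine and 19.4% beside 8.02% in stomach. Members were thus found among their own neighbours more often than among all T cells, and most neighbours were not members. In colon 31.8% of neighbours were Ly49-positive CD8 alpha-alpha cells, which made up 19.4% of T cells. In small intestine 44.3% were Ly49-negative gamma-delta cells, which made up 55.9%. Ly49-negative double-negative cells gave 17.9% of neighbours in cecum (18.5% of T cells) and 4.89% in colon (6.02%), below their share of T cells in both.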

How the data were processed

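The data are 4 10x 3' single-cell libraries of sorted intraepithelial leukocytes, 1 each from cecum, colon, small intestine and stomach. The authors deposited UMI counts per gene and cell barcode, made with Cell Ranger on GRCm38/mm10, per the submitters' processing notes, which also name Seurat 3.0.0. No ribosomal protein or mitochondrial symbols occur in the gene list, so CPM are over listed genes. Doublets were not removed.

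Members and comparison sets were cut from raw counts by the rule, and counts were summed per library and set; sums of at least 10 cells entered the fits. The test was edgeR 4.0.16 (quasi-likelihood, TMM, filterByExpr, set and library as terms, all sets in 1 fit) in R 4.3.3, with Benjamini-Hochberg adjustment over all tested genes and a threshold of 0.05; DESeq2 1.42.0 was an alternative. The 18 genes of the rule were left out. In simulated counts, 9246 genes were tested, and 100 genes above a floor of expression were changed at each fold. For the comparison with Ly49-negative cells, 95% of 4-fold and 27% of 2-fold changes were recovered. The simulation gave all genes 1 fixed spread, which the measured counts need not share, so these shares may not hold for them. Gene names in the text are the 12 largest called changes per direction with 1 direction in all libraries (8 against NK/ILC1 cells), the 12 ratios per direction whose bound is farthest from 1, and list genes; genes of the narrower CD8 alpha-alpha fits were chosen after their values were seen. The members and lists were chosen with earlier results of these data known.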

Additional observations from a re-analysis of the deposited data

Results flagged for a closer look

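The Ly49-positive against Ly49-negative difference was compared between double-negative and CD8 alpha-alpha T cells by an interaction term (edgeR quasi-likelihood, Benjamini-Hochberg adjusted). It passed for 7 of 9123 genes (0.0767%), all with a lower value in double-negative cells, and for 0 in the other direction, with 483 genes at an unadjusted p under 0.05. Among T cell genes, Tnfrsf4 (OX40) had a difference of log2 differences of -4.48 (adjusted p = 0.0276). It lost the call without colon (adjusted p = 1), small intestine (0.206) or stomach (0.251), and by DESeq2 (0.508). Ifi27l2a, an interferon-induced gene, had -2.001 (adjusted p = 9.51e-04) and lost the call without colon (0.118), and it was the 1 gene called by DESeq2 (0.0198). The other 5 are markers of mast or epithelial cells: Krt8 at -10.91, Cma1 at -9.94, Tpsb2 at -9.85, Tph1 at -7.44 and Tpsab1 at -6.82. Stomach holds no CD8 alpha-alpha sum in the fit, and mast cell markers summed to 48289 CPM in its Ly49-negative double-negative cells. The part of mast and epithelial RNA in these 5 values was not tested. With cecum left out 36 genes passed, with colon 4, and with small intestine or stomach 1 each.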

How the results depend on the processing

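Of the single genes' values, 2179 kept direction and side of the threshold, 189 lost and 52 gained the call, 8 moved and 4 reversed; of the summary values, 92 stayed and 52 moved. Restricting to cecum and colon was chosen after seeing the data. The labels give no replicate numbers; the compared sets share libraries, and the library is a term of every fit. The causes were not tested. The share of T cells moved in cecum to 21.2% with at least 1 Klra UMI, 12.2% with 3 and 14.4% after thinning, and in colon to 10.3%, 7.35% and 10.0%. Against Ly49-negative cells, genes higher numbered 67 without a filter on low counts, 16 without cells above 2 times the median UMIs, 20 with only the compared sets in the fit and 4 to 39 with 1 library left out. Genes lower numbered 51 by DESeq2, 473 without the filter, 45 without the high-UMI cells, 32 with only the compared sets, 60 in cecum and colon and 13 to 273 with 1 library left out. Without the high-UMI cells Epcam reversed to 0.35 and Fabp2 to 1.78. Against CD8 alpha-alpha cells, genes higher numbered 27 without the filter, 74 with only the compared sets, 25 in cecum and colon and 0 to 2 with 1 library left out. Genes lower numbered 0 by DESeq2, 1 with DESeq2's size factors, 51 without the filter, 4 without the high-UMI cells, 0 with at least 3 Klra UMIs, 77 with only the compared sets, 29 in cecum and colon and 0 to 4 with 1 library left out. With at least 3 Klra UMIs, Cma1 reversed to 3.58 and Tpsb2 to 3.35. Against NK/ILC1 cells, genes higher numbered 38 with only the compared sets, 109 in cecum and colon and 14 to 94 with 1 library left out, and genes lower 196 without the filter and 34 to 164 with 1 library left out. The interaction gave 1 gene lower by DESeq2, 49 without the filter, 12 without the high-UMI cells, 1 with at least 3 Klra UMIs, 11 with only the compared sets and 1 to 36 with 1 library left out. With at least 50 UMIs per gene, 84 genes were past the limit in cecum and 117 in colon. On 10 principal components, 28.9% of neighbours were members in cecum and 20.8% in colon. Small intestine and stomach, with 36 and 21 members, limit what could be detected there.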

Other observations

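Some genes outside the lists, chosen after their values were seen, also separated the members from Ly49-negative double-negative cells (edgeR, adjusted over all genes). Gimap4, which encodes a GTPase of lymphocytes, was higher (log2 0.52, adjusted p = 0.0040), as were the kinase gene Txk (0.65, 0.0478) and Stat4, which transmits interleukin-12 signals (0.69, 0.0466). Themis, which acts in T cell receptor signalling during thymic selection, was lower (log2 -2.08, adjusted p = 0.0204), as were Slamf1 (-2.60, 0.0154) and Cd40lg, which encodes the CD40 ligand (-3.01, 0.0029). None of these calls held with each library left out. Without colon the adjusted p was 0.189 for Gimap4, 0.460 for Txk, 0.520 for Stat4, 0.570 for Slamf1 and 0.0841 for Cd40lg, and Themis was not tested. Gimap4 also lost its call without small intestine (0.0640). Stat4 lost it without small intestine (0.130) or stomach (0.154), and Txk without cecum (0.166), small intestine (0.0969) or stomach (0.0758). Cd40lg was not tested without stomach.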
